A study of Mus musculus with 6 samples.

Results

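The genes described here are 10 members of the Bcl2 family, which sets whether a cell's mitochondria release the signals for apoptosis: Bcl2, Bcl2l1, Mcl1, Bax, Bak1, Bcl2l11, Bad, Bid, Bbc3 and Pmaip1. Every probe whose symbol in the array's annotation is one of these names was taken, which gave 25 of 25697 probes for 9 of the 10 genes. No probe carried the symbol Bax in the annotation table used here, so this gene was not analysed. Bcl2 had 8 probes, Bcl2l11 had 4, Bcl2l1 and Bbc3 had 3 each, Bid and Pmaip1 had 2 each, and Mcl1, Bak1 and Bad had 1 each. Of the 25 probes, 19 were tested because both arrays of 1 or more groups were above background; the other 6 (4 of Bcl2, 1 of Bcl2l11 and 1 of Bid) were above background on no array and were not tested.

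In apoptosis through the mitochondria, the effector proteins Bax and Bak open the outer mitochondrial membrane so that cytochrome c escapes and caspases are activated. Bcl2, Bcl-xL (encoded by Bcl2l1) and Mcl1 hold the effectors in check, and the BH3-only proteins, among them Bim (Bcl2l11), Bad, Bid, Puma (Bbc3) and Noxa (Pmaip1), bind the protective members or the effectors and favour death. Pluripotent cells are known for dying readily after DNA damage, and all of these proteins are also controlled after transcription, which an expression array does not measure.

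Signals came from Illumina bead arrays, on which each probe reports the abundance of labelled RNA. There were 3 groups of mouse cells with 2 arrays each. The piPSC group was pluripotent stem cells induced with recombinant proteins. The OG2-MEF group was fibroblasts prepared from E13.5 embryos that carry green fluorescent protein under the Oct4 promoter, grown on gelatin without feeder cells. The ES group was embryonic stem cells of the R1 line, for which the labels describe irradiated fibroblast feeders, serum and leukemia inhibitory factor; the same culture text stands beside the piPSC arrays. No drug or death stimulus is named for any group. Sample titles number the arrays as biological replicates but do not say whether cultures or lines were separate, so the p-values reflect variation among these 6 samples that may in part be technical.

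Values are log2 signals after background correction and quantile normalization. A probe was called where limma's adjusted p was under 0.05 and the fold at least 2, and "rose" or "fell" is used only of called probes. Fold changes are given with their moderated standard error (SE), and n is 2 arrays per group throughout. All 8 pluripotency markers checked were above background on every piPSC and ES array, while Pou5f1, Sox2, Esrrb, Fbxo15 and Tdgf1 were above it on neither OG2-MEF array. Nanog, Zfp42 and Dppa5a were each above it on 1 OG2-MEF array. The 2 ES arrays differed most from each other: 952 tested probes were over 2-fold lower on ES replicate 2 than on ES replicate 1 and 41 were over 2-fold higher. The SD of the difference between arrays was 0.649 for ES against 0.212 for piPSC and 0.194 for OG2-MEF. A difference between 2 arrays does not show which of them is atypical. Values without an array are given beside the genes whose call they change. Fibroblast markers were also detected in the pluripotent cultures: 10 of 11 were above background on every array, with a summed linear signal of 22560 to 23710 for piPSC and 15100 to 19450 for ES against 110300 to 112700 for OG2-MEF. Of 4 macrophage markers with a probe, 2 and 3 were above background on the OG2-MEF arrays (Fcer1g and Adgre1 on both, Aif1 on 1) and 0 or 1 on the others, with summed signals of 152.2 to 154.5 in OG2-MEF and 103.5 to 119.3 elsewhere; Ptprc was above background on no array. Of 5 endothelial markers 1 was above background on each array, Emcn in OG2-MEF and Tek in piPSC and ES, with summed signals of 658.8 to 677.3 in OG2-MEF and 227 to 383.3 elsewhere, while Cdh5, Kdr and Tie1 were above it on no array. The part of such cells in the results was not tested. Fewer cells of a type and less RNA per cell cannot be told apart in such bulk samples.

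The promoters of the members with a called probe in both comparisons with fibroblasts are shown first. The called Bcl2 probes were tested only because both OG2-MEF arrays were above background, so some of their difference was built in. The windows run from 250 bases before to 50 bases after a transcription start in RefSeq's annotation of GRCm38.p6, of which the most upstream listed window per gene is printed. Bcl2 and Bcl2l1 fell in both pluripotent groups. The Bcl2 window (chr1:106714241-106714540, minus strand) is the only one listed for this gene, and that of Bcl2l1 (chr2:152831679-152831978, minus strand) is 1 of 3. Capitals mark the GC box GGGCGG on either strand.
Bcl2: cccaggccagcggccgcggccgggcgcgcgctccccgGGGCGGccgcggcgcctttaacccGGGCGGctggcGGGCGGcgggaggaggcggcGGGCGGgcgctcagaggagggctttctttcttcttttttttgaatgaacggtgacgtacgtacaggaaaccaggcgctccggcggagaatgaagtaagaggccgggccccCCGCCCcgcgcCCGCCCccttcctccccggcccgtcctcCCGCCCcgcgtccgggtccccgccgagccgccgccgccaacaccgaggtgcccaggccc
Bcl2l1: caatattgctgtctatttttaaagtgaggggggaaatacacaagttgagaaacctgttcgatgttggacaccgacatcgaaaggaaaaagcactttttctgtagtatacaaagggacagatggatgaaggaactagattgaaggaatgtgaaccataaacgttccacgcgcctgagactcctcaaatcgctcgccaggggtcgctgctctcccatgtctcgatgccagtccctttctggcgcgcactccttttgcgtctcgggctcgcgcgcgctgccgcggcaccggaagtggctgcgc
Bbc3 and Bid rose in both pluripotent groups. The Bbc3 window (chr7:16309333-16309632, plus strand) is 1 of 3 listed, 2 of its marked boxes share a base, and the Bid window (chr6:120916775-120917074, minus strand) is the only one.
Bbc3: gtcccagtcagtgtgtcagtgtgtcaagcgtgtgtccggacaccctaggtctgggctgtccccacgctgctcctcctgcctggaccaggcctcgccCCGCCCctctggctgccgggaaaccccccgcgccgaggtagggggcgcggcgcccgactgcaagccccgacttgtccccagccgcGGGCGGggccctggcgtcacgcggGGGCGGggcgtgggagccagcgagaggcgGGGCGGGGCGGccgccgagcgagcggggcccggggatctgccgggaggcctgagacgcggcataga
Bid: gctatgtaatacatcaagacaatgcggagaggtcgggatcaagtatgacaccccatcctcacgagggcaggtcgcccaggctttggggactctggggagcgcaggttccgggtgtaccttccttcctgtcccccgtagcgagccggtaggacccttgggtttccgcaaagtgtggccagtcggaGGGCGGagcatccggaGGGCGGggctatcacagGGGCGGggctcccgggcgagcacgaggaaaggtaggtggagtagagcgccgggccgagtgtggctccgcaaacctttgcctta

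The Bcl2 window held 7 GC boxes, the Bbc3 window 5 and the Bid window 3, whereas none lay in any of the 3 windows of Bcl2l1. A GC box on either strand occurred in 35.7% of all 32851 promoter windows. The windows of Bcl2 and Bbc3 were both 76% G and C, against a median of 52.7% over all windows, and that of Bcl2l1 was 52.3%. CpG dinucleotides numbered 44 in the Bcl2 window, 34 in that of Bbc3 and 22 in those of Bcl2l1 and Bid, against a median of 7. The octamer ATGCAAAT, read by Oct4 and other POU factors, was in none of the windows of the 9 members searched, which leave out Pmaip1, and in 1.74% of all windows, and the E-box CACGTG was in 7.15%. Among the windows of these 9 members the E-box was in that of Bax and in 1 of the Bbc3 windows. The p53 decamer, searched on both strands like the other motifs, was in the Bax window and in 8.36% of all windows. These matches describe letters in a window: of the 4 printed genes, GC boxes were in 1 that fell and in both that rose.

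Against fibroblasts, the protective genes Bcl2 and Bcl2l1 were lower in piPSC, while the BH3-only genes Bbc3 and Bid were higher. The protector Mcl1, the effector Bak1 and the BH3-only genes Bcl2l11, Bad and Pmaip1 were not called. Of the 19 tested member probes, 7 were called (36.8%), 2 higher and 5 lower, against 40.1% of all 14533 tested probes (19.1% higher and 21.0% lower), so the share called was near the background. By gene, counting those with at least 1 called probe and none the other way, 2 of 9 rose, against 21.2% of all genes, and 2 of 9 fell, against 22.5%. In ES cells 13 of 19 probes were called, 4 higher and 9 lower, against 46.6% of all probes (23.2% higher and 23.4% lower), and by gene 2 rose (26.2% of all genes) and 4 fell (24.6%). The added genes were Bcl2l11 and Pmaip1. The gene counts favour genes with several probes. With the fit run on 1 probe per gene, that with the highest mean, 2 members rose and 1 fell in piPSC. Over all 9900 genes 1995 rose and 2130 fell. In ES 2 members rose and 2 fell, against 2492 and 2142 of all genes. Bcl2 was read there on ILMN_2682162 and was not called. Both comparisons use the same OG2-MEF arrays. In each of them 18 of 19 member probes had groups without overlap, against 88.6% of all tested probes in piPSC and 85.1% in ES. Between piPSC and ES this held for 12 of 19, against 70%. Lack of overlap, given below for single genes, is thus common on these arrays. The median log2 fold change of the member probes was -0.35 in piPSC and -0.96 in ES, against 0.02 and 0.05 over all probes. These counts and medians are descriptions, because 4 member probes (3 of Bcl2 and 1 of Pmaip1) passed the detection filter through OG2-MEF alone and so had to differ from another group; 8.09% of all tested probes passed that way.

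**Figure D1:**
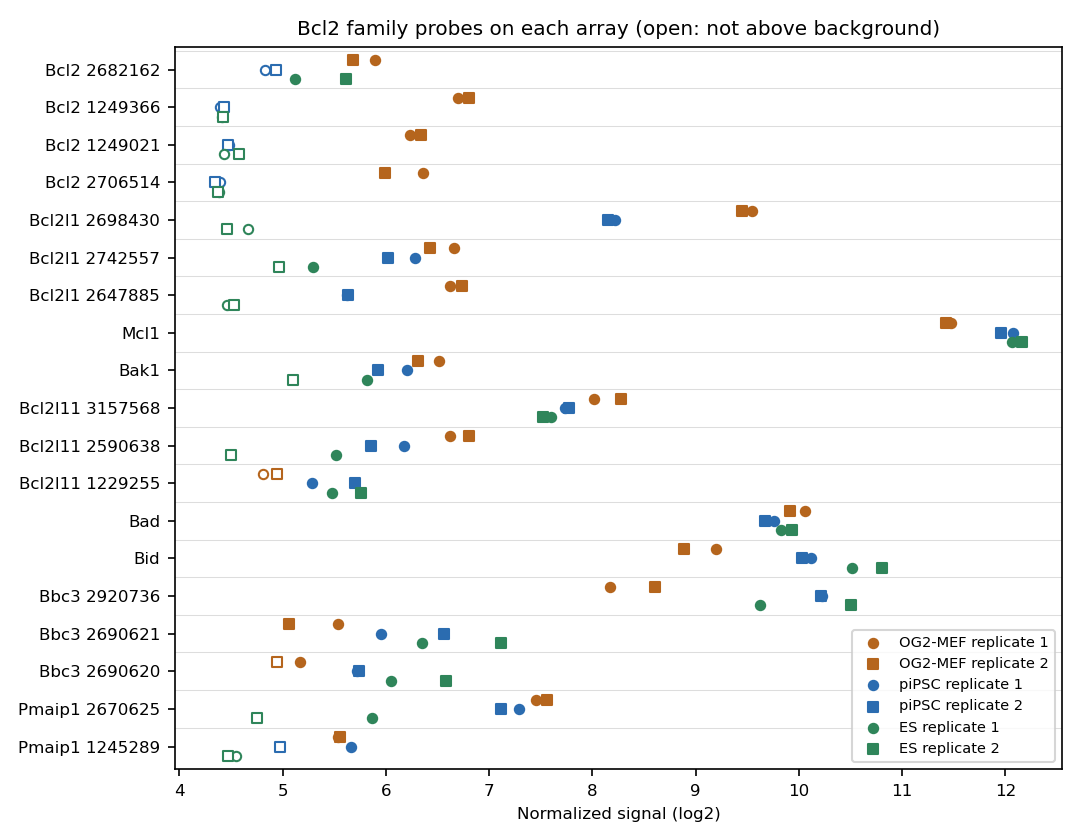
Normalized log2 signal of the 19 tested Bcl2 family probes (rows) on each of the 6 arrays; circles are replicate 1, squares replicate 2, and open symbols are not above background. For 3 Bcl2 probes only the OG2-MEF arrays are above background, and for Bcl2l1 probe ILMN_2698430 the groups lie in the order OG2-MEF, piPSC, ES.

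Bcl2, the first described protector of the family, was above background only in fibroblasts on 3 of its 4 tested probes. Those 3 passed the detection filter through OG2-MEF alone. Some difference from the other groups was thus built in, and their p-values and lack of overlap are descriptions. Probe ILMN_1249366 gave 6.70 and 6.81 on the OG2-MEF arrays, 4.39 and 4.43 on the piPSC arrays and 4.41 and 4.42 on the ES arrays. Only the fibroblast values were above background, and they overlapped with neither of the other groups. The signal was at least 3.43-fold lower in piPSC (adjusted p = 3.1e-05) and at least 2.98-fold lower in ES (adjusted p = 2.7e-05); "at least" is used where the dimmer group was not above background on either array, so that its level is only bounded. Probe ILMN_1249021 gave 6.23 and 6.34, then 4.48 and 4.48, then 4.43 and 4.57 in the same order of groups, at least 2.49-fold lower in piPSC and at least 2.16-fold lower in ES (adjusted p = 8.5e-05 and 7.6e-05). On probe ILMN_2706514 the fibroblasts lay at 6.36 and 5.99 and all 4 other arrays between 4.35 and 4.39, at least 2.3-fold lower in piPSC and at least 2.00-fold lower in ES (adjusted p = 0.0002 and 0.00017). These 3 probes are annotated to the transcript NM_009741. With an offset of 50, the differences of ILMN_1249021 (-0.995 and -0.985) and ILMN_2706514 (-0.962 and -0.958) were just under 2-fold and their calls ended in both comparisons, which left ILMN_1249366 called.

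The other tested Bcl2 probe, ILMN_2682162, is annotated to the other RefSeq transcript, NM_177410, and differed in pattern. It gave 5.90 and 5.68 in OG2-MEF, 4.83 and 4.93 in piPSC and 5.12 and 5.62 in ES, and was above background on the ES arrays too. Its difference from fibroblasts was -0.91 in piPSC (SE 0.20, adjusted p = 0.0081) and -0.42 in ES (SE 0.20, adjusted p = 0.10), both under 2-fold. Both median scaling and leaving out OG2-MEF replicate 2 brought the piPSC difference to -1.02, past the threshold. The 4 untested Bcl2 probes lay between 4.30 and 4.67 on all arrays. Between piPSC and ES no Bcl2 probe was called, with differences from -0.48 (ILMN_2682162, SE 0.20, adjusted p = 0.11) to -0.01, and on the other 3 probes both groups were below background, which gives no fold between them.

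Bcl2l1, which encodes Bcl-xL, was graded across the groups and had the largest fitted differences of the members in both comparisons with ES. Probe ILMN_2698430 gave 9.55 and 9.45 on the OG2-MEF arrays, 8.22 and 8.15 on the piPSC arrays and 4.67 and 4.46 on the ES arrays. None of the 3 groups overlapped, and the ES values were not above background. The signal fell by 1.31 in piPSC (log2, SE 0.13, adjusted p = 0.00036), which is 2.49-fold. In ES it was at least 20-fold lower than in fibroblasts (adjusted p = 4.9e-06) and at least 8.04-fold lower than in piPSC (adjusted p = 0.00018). Both calls against ES held without ES replicate 2, with fitted log2 differences of -4.83 and 3.52. The call between piPSC and fibroblasts did not pass treat, limma's test against a 2-fold change (adjusted p = 0.11).

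The other Bcl2l1 probes kept that order at lower signal. Probe ILMN_2647885 gave 6.62 and 6.74 in OG2-MEF, 5.62 and 5.63 in piPSC and 4.46 and 4.53 in ES, where neither array was above background. It fell in piPSC (log2 fold change -1.05, SE 0.12, adjusted p = 0.00061), and was at least 2.83-fold lower in ES than in fibroblasts (adjusted p = 3.6e-05), and at least 1.37-fold lower in ES than in piPSC, a bound under 2-fold beside a fitted difference of 1.13 (adjusted p = 0.0036). The difference between piPSC and fibroblasts was under 2-fold on the authors' matrix (-0.749), with an offset of 50 (-0.709) and without OG2-MEF replicate 2 (-0.99). That between piPSC and ES was under 2-fold on the authors' matrix (0.818), with an offset of 50 (0.561) and under median scaling (0.977), and its adjusted p was 0.052 without piPSC replicate 1. Probe ILMN_2742557 gave 6.66 and 6.43, then 6.28 and 6.02, then 5.29 and 4.97, with 1 of the ES arrays above background. It did not pass between piPSC and fibroblasts (-0.39, SE 0.18, adjusted p = 0.10), fell in ES against fibroblasts (-1.42, SE 0.18, adjusted p = 0.00077), and was higher in piPSC than in ES (1.02, SE 0.18, adjusted p = 0.014). The call between ES and fibroblasts ended on the authors' matrix (-0.953) and with an offset of 50 (-0.884). That between piPSC and ES ended there too (0.66 and 0.606), without ES replicate 2 (0.859, under 2-fold) and without piPSC replicate 1 or 2 (adjusted p = 0.11 and 0.072). The annotation ties all 3 probes to 1 transcript, NM_009743, so splice forms of the gene were not told apart.

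Bcl2 and Bcl2l1 were highest in OG2-MEF, as was the summed signal of the fibroblast markers, although Lum was higher on the pluripotent arrays. Bcl2l1 was lowest in ES, at least 8.04-fold below piPSC on probe ILMN_2698430. The marker sum was 22560 to 23710 in piPSC and 15100 to 19450 in ES. Of single markers, Col1a1, Col5a1, Fbln2 and Vim were lower in ES than in piPSC. Pdgfra was higher in ES (7.84 and 7.87 against 7.18 and 7.12), and Col1a2, Col3a1, Thy1, Pdgfrb, Lum and Postn overlapped. Bcl2 was at background alike in piPSC and ES on its called probes. On the ES arrays Bcl2l1 probe ILMN_2698430 and the called Bcl2 probes were at background. Bcl2 probe ILMN_2682162 and 10 of 11 fibroblast markers were above it. The part of residual or feeder fibroblasts in these values was not tested.

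Mcl1, a short-lived protector of the same class, had signals of a narrow range in all cells. Its probe gave 11.47 and 11.42 in OG2-MEF, 12.07 and 11.95 in piPSC and 12.07 and 12.16 in ES. Both pluripotent groups lay above the fibroblasts without overlap, by 0.56 in piPSC (SE 0.12, adjusted p = 0.0083) and 0.66 in ES (SE 0.12, adjusted p = 0.0037), which is 1.48-fold and 1.58-fold and below the 2-fold threshold. The piPSC and ES values overlapped (difference -0.10, SE 0.12, adjusted p = 0.56). Deposited intensities before normalization were 3553 and 3556 in OG2-MEF, 4044 and 3712 in piPSC and 3749 and 3630 in ES, and under median scaling the piPSC difference was 0.24.

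**Figure D2:**
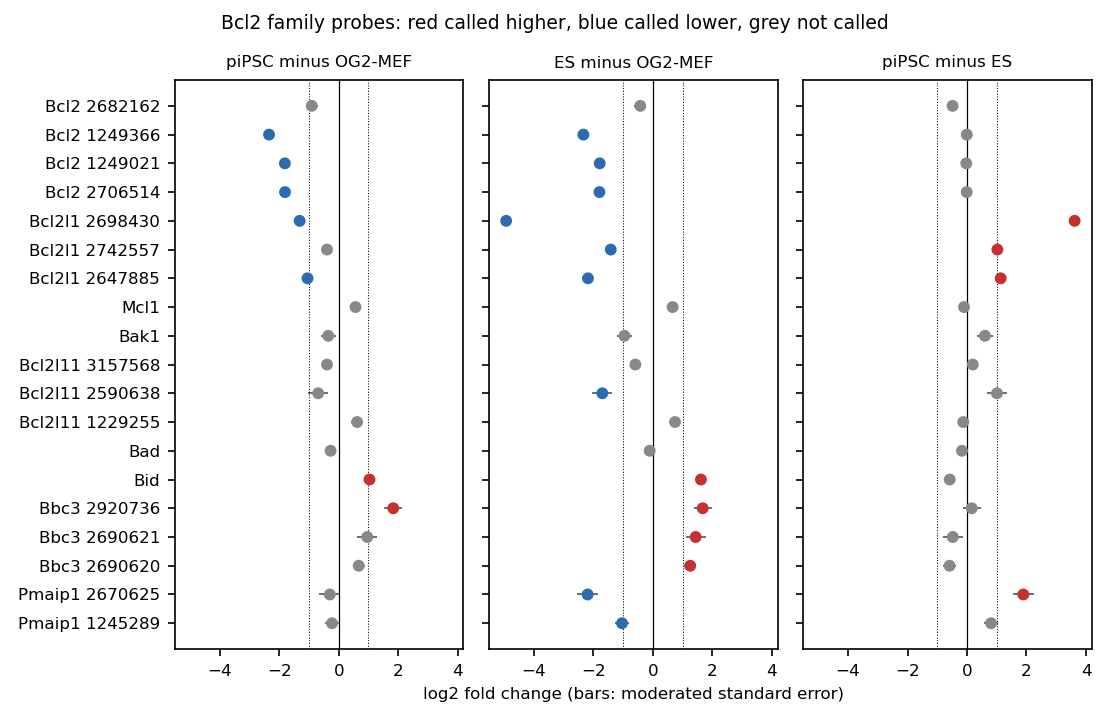
Log2 fold change with its moderated standard error for the 19 tested probes in the 3 comparisons; dotted lines mark 2-fold. Blue points fell, red points rose, and grey points did not pass. The furthest point is Bcl2l1 probe ILMN_2698430 at -4.93 in ES against OG2-MEF, a fitted value and no bound.

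Of the effectors, only Bak1 could be measured, and it was not called in any comparison. Its signals were low: 6.52 and 6.31 in OG2-MEF, 6.21 and 5.92 in piPSC, and 5.82 and 5.10 in ES, the last not above background. The difference from fibroblasts was -0.35 in piPSC (SE 0.26, adjusted p = 0.28) and -0.96 in ES (SE 0.26, adjusted p = 0.017, just under 2-fold), and piPSC differed from ES by 0.60 (SE 0.26, adjusted p = 0.13). The ES difference depended on the array, at -1.31 without ES replicate 1 and -0.60 without ES replicate 2, and was -1.17 under median scaling.

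Among the BH3-only genes, Bbc3 showed the largest increase in piPSC. Bbc3 encodes Puma, a target of p53 that binds all of the protective members. Probe ILMN_2920736 gave 8.17 and 8.61 in OG2-MEF, 10.23 and 10.22 in piPSC, and 9.63 and 10.50 in ES. The pluripotent arrays all lay above the fibroblasts, and the piPSC values fell between the ES values. The signal rose 3.56-fold in piPSC (log2 fold change 1.83, SE 0.31, adjusted p = 0.0027) and 3.19-fold in ES (1.68, SE 0.31, adjusted p = 0.0035). Neither passed treat against a 2-fold change (adjusted p = 0.075 and 0.11).

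The weaker Bbc3 probes pointed the same way. Probe ILMN_2690621 gave 5.53 and 5.06, then 5.96 and 6.56, then 6.35 and 7.12 in OG2-MEF, piPSC and ES, and ILMN_2690620 gave 5.17 and 4.95, then 5.72 and 5.74, then 6.05 and 6.58, with 1 of its OG2-MEF arrays above background. In ES both rose, by 1.44 (SE 0.34, adjusted p = 0.0096) and 1.26 (SE 0.20, adjusted p = 0.0021), whereas in piPSC the differences of 0.96 (adjusted p = 0.046) and 0.67 (adjusted p = 0.029) stayed under 2-fold. Without OG2-MEF replicate 2 the adjusted p of ILMN_2690621 in ES was 0.07, and without ES replicate 2 ILMN_2690620 differed by 0.989, under 2-fold. With an offset of 50 both ES calls ended (0.944 and 0.76), and on the authors' matrix that of ILMN_2690620 did (0.826). No Bbc3 probe was called between piPSC and ES, and the main probe's difference was 0.16 (SE 0.31, adjusted p = 0.72).

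Bid, which caspase-8 cleaves to carry death-receptor signals to the mitochondria, rose in both pluripotent groups on its 1 tested probe. The values were 9.20 and 8.89 in OG2-MEF, 10.12 and 10.03 in piPSC and 10.52 and 10.80 in ES, with no overlap between any of the groups. The log2 fold change was 1.03 in piPSC (SE 0.17, adjusted p = 0.0025), which is 2.05-fold, and 1.62 in ES (SE 0.17, adjusted p = 0.00034), or 3.07-fold. The piPSC call rests close to the 2-fold line: the difference was 0.99 without piPSC replicate 1, 0.88 without OG2-MEF replicate 2, 0.989 with an offset of 50 and 0.66 under median scaling. Between piPSC and ES the difference of -0.58 (SE 0.17, adjusted p = 0.051) did not pass.

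Pmaip1, which encodes Noxa, a partner of Mcl1, had its lowest signals in ES. Probe ILMN_2670625 gave 7.45 and 7.56 in OG2-MEF, 7.29 and 7.12 in piPSC, and 5.87 and 4.75 in ES, where the second array was not above background. It fell in ES by 2.19 (SE 0.35, adjusted p = 0.0019), did not pass in piPSC against fibroblasts (-0.30, SE 0.35, adjusted p = 0.48), and was 3.72-fold higher in piPSC than in ES (log2 fold change 1.89, SE 0.35, adjusted p = 0.016). Without ES replicate 2 the last difference was 1.34 and still passed; it ended without piPSC replicate 1 or 2 (adjusted p = 0.11 and 0.093) without either OG2-MEF array (0.057) and with only these 2 groups in the fit (0.051). The second probe, ILMN_1245289, gave 5.53 and 5.56, then 5.66 and 4.97, then 4.55 and 4.47, with neither ES array above background. It passed the detection filter through OG2-MEF alone, so some difference was built in and its p-values are descriptions. It was at least 1.29-fold lower in ES than in fibroblasts, a bound under 2-fold, with a fitted log2 fold change of -1.04 (adjusted p = 0.0081) that was under 2-fold with an offset of 50 (-0.508), on the authors' matrix (-0.748), under median scaling (-0.938) and without ES replicate 2 (-0.998), and that missed the threshold without OG2-MEF replicate 2 (adjusted p = 0.052). The piPSC arrays of this probe overlapped with the fibroblasts, and its difference between piPSC and ES was 0.81 (adjusted p = 0.049, under 2-fold), or 1.16 and called without piPSC replicate 2.

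The 3 tested Bcl2l11 probes disagreed. Bcl2l11 encodes Bim, which binds every protective member. Probe ILMN_2590638, annotated to NM_009754, gave 6.62 and 6.80 in OG2-MEF, 6.18 and 5.86 in piPSC, and 5.51 and 4.51 in ES. It fell in ES (-1.70, SE 0.33, adjusted p = 0.0047, and -1.19 without ES replicate 2), while the difference was -0.69 in piPSC (SE 0.33, adjusted p = 0.12) and 1.01 between piPSC and ES (SE 0.33, adjusted p = 0.07). That last difference was 1.51 and called without ES replicate 1. Probe ILMN_3157568, annotated to NM_207680, was the brightest, at 8.01 and 8.28, then 7.73 and 7.77, then 7.60 and 7.52. Its differences from fibroblasts were -0.39 in piPSC (SE 0.14, adjusted p = 0.049) and -0.59 in ES (SE 0.14, adjusted p = 0.011), both under 2-fold, and the ES difference was -1.02 and called under median scaling. ILMN_1229255, also annotated to NM_207680, lay the other way: 4.81 and 4.95 in OG2-MEF, neither above background, 5.28 and 5.70 in piPSC, and 5.48 and 5.76 in ES, with differences of 0.62 (adjusted p = 0.03) and 0.74 (adjusted p = 0.014) that did not reach 2-fold. Counting Bcl2l11 among the genes that fell in ES therefore rests on 1 of its 3 tested probes.

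Bad, which is held inactive by growth-factor-dependent phosphorylation, had similar signals in all groups after normalization. Deposited intensities before normalization were 1363 and 1272 in OG2-MEF, 816 and 781 in piPSC and 804 and 760 in ES. Over the alternatives the difference of piPSC from fibroblasts lay between -0.619 and -0.204. The normalized values were 10.06 and 9.92 in OG2-MEF, 9.76 and 9.67 in piPSC and 9.82 and 9.94 in ES, where the fibroblast and ES values overlapped. The differences were -0.27 in piPSC against fibroblasts (SE 0.13, adjusted p = 0.11), -0.11 in ES (SE 0.13, adjusted p = 0.49) and -0.17 between piPSC and ES (SE 0.13, adjusted p = 0.35), and none passed.

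Set directly against ES cells, piPSC had more signal for Bcl2l1 and Pmaip1. Of the 19 probes, 4 were called (21.1%), all higher in piPSC, against 11% of all tested probes called either way and 7% called higher. By gene, 2 of 9 were higher and 0 lower, against 7.96% and 5.07% of all genes. With limma, 0 of 19 member probes were called lower in piPSC, and 2 were lower at an unadjusted p under 0.05 (those of Bid and Bbc3 probe ILMN_2690620); over all probes 4.03% were called lower. The count of 4 was 1 without piPSC replicate 1, which left Bcl2l1 probe ILMN_2698430 alone. It was 2 on the authors' matrix. Both genes lie at or near background on the ES arrays. Over all probes 1017 were called higher in piPSC and 585 lower, but this order turned without a fold threshold (1663 and 2332) and with 1 probe per gene (407 and 439).

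**Figure D3:**
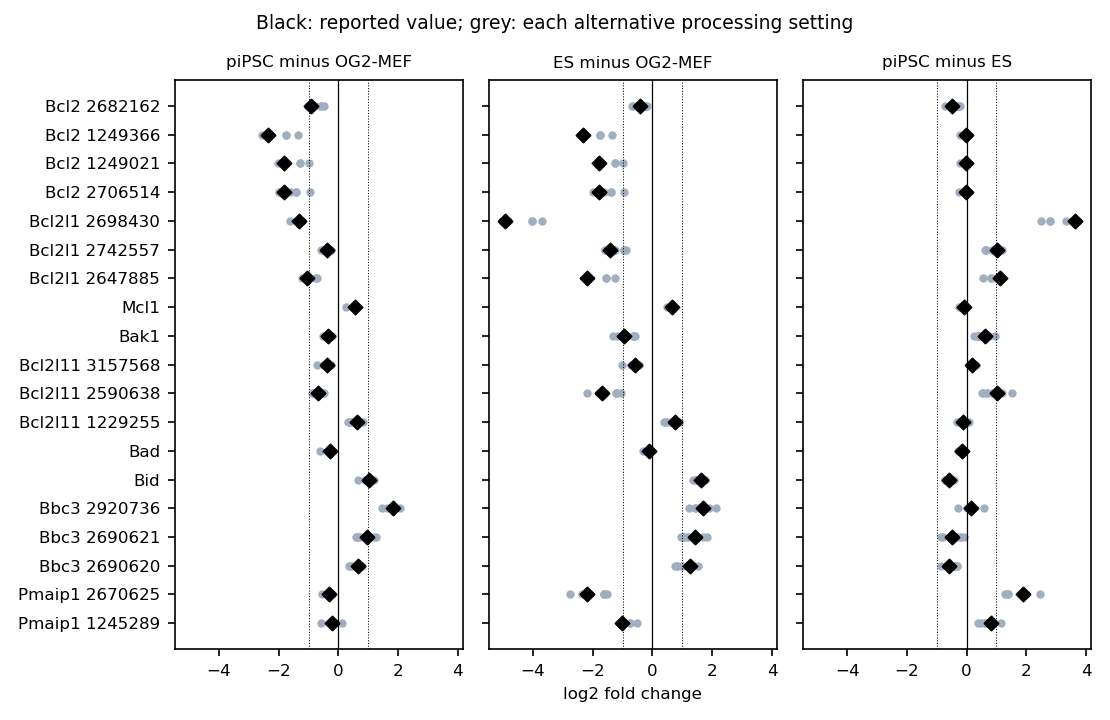
Reported log2 fold change (black diamonds) and the value under each alternative processing setting or with 1 array left out (grey points), for each tested probe and comparison; dotted lines mark 2-fold. No called difference changed sign, and Bcl2l1 probe ILMN_2698430 stayed past 2-fold in all 3 comparisons.

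Other genes of the pathway were read on the probe with the highest mean per gene. Over all 9900 genes read in this way, 20.1% were called higher and 21.5% lower in piPSC against fibroblasts, 25.1% and 21.6% in ES against fibroblasts, and 3.94% and 4.42% in piPSC against ES. Among 8 tested genes of the wider Bcl2 family, 2 were called higher and 2 lower in piPSC (median log2 fold change 0.29, against 0.02 for all genes), and 3 higher and 2 lower in ES (0.22 against 0.15). Bcl2l2, which encodes the protector Bcl-w, fell in piPSC (log2 fold change -1.74, SE 0.17, adjusted p = 0.00029) and in ES (-1.89, SE 0.17, adjusted p = 0.00017). Bok, an effector-like relative, fell in piPSC (-2.09, adjusted p = 0.00036) and in ES (-1.18, adjusted p = 0.0034, the latter named after its value was seen), where the difference was -0.867 and under 2-fold without ES replicate 1. Bik, a BH3-only gene not above background in fibroblasts, was at least 1.88-fold higher in piPSC and at least 4.26-fold higher in ES (adjusted p = 0.00068 and 5e-05), and was lower in piPSC than in ES by a log2 fold change of -1.18 (adjusted p = 0.0063). With an offset of 50 the increase in piPSC was 0.69 and that of Bik in ES 1.55, and on the authors' matrix the former was 0.86. The difference between piPSC and ES was -0.932 under median scaling, -0.90 on the authors' matrix and -0.857 with an offset of 50, and its adjusted p was 0.07 without piPSC replicate 1 and 0.055 without piPSC replicate 2. Bcl2l14, a less studied relative, was at least 1.94-fold higher in ES (adjusted p = 0.00018), and its fitted difference was 0.81 with an offset of 50. The remaining called gene, Bmf, a BH3-only gene named after its values were seen, rose by 1.10 in piPSC and 1.31 in ES (adjusted p = 0.00047 and 2e-04), or by 0.736 and 0.892 on the authors' matrix and 0.688 and 0.837 with an offset of 50, all under 2-fold.

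Among 10 tested effectors of the mitochondrial pathway, 2 were higher and 1 lower in piPSC (median 0.31) and 2 higher and 3 lower in ES (median 0.65). Casp9, the initiator caspase of this pathway, gave 4.61 and 4.76 in OG2-MEF, 7.99 and 8.19 in piPSC and 9.57 and 9.44 in ES. Fibroblasts were not above background, so the increase is bounded, at 8.44-fold or more in piPSC (adjusted p = 1.7e-05) and 22.4-fold or more in ES (adjusted p = 6e-06). The piPSC signal was lower than that of ES, with a difference of -1.41 (SE 0.14, adjusted p = 0.003). Diablo, whose product frees caspases from their inhibitors, rose 2.77-fold in piPSC and 3.96-fold in ES (adjusted p = 0.00053 and 0.00014). Apaf1, the scaffold that activates caspase-9, fell in piPSC (-1.32, adjusted p = 0.0013); its other tested probe gave -0.84, which is under 2-fold. The genes lower in ES were Htra2 (-2.10, adjusted p = 0.042) and, named after their values were seen, Casp6 (-1.69, adjusted p = 0.0015) and Vdac3 (-1.06, adjusted p = 0.047). For Htra2 the ES arrays lay at 8.23 and 5.76, and without ES replicate 2 the difference was -0.86; its adjusted p was 0.079 to 0.17 without any 1 of the piPSC or OG2-MEF arrays. For Vdac3 the ES arrays lay at 11.02 and 9.78, the difference was -0.439 without ES replicate 2, and its adjusted p was 0.086 to 0.17 without any 1 of the piPSC or OG2-MEF arrays. Leaving out any of these 5 arrays left 1 gene of this list called lower in ES, Casp6.

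**Figure D4:**
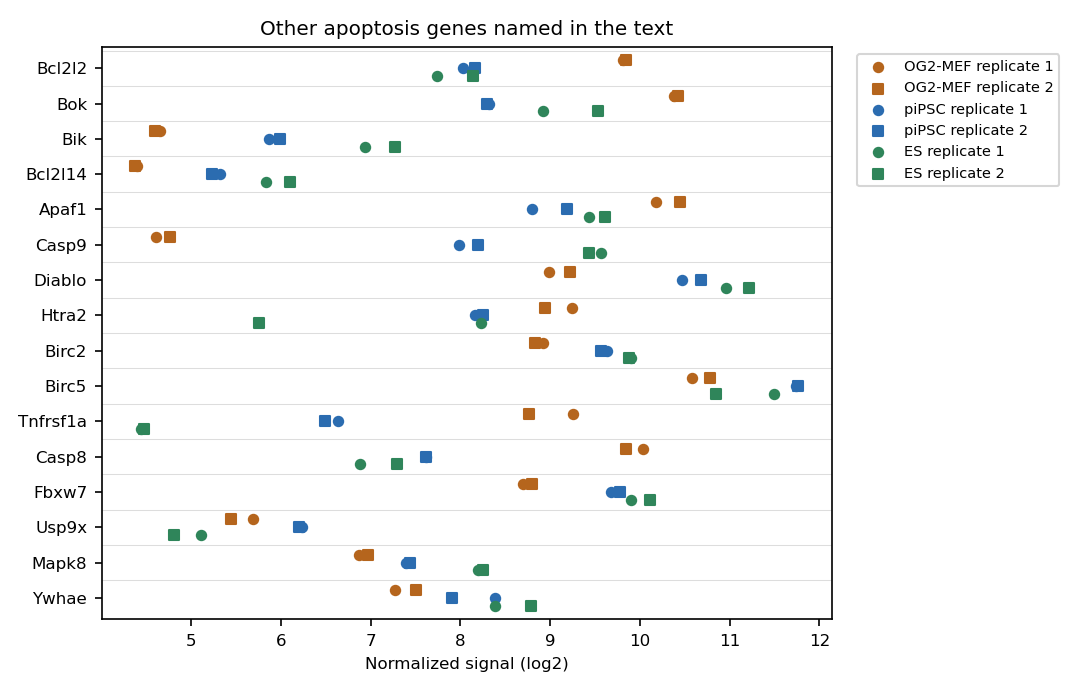
Normalized log2 signal on each of the 6 arrays (circles replicate 1, squares replicate 2) of the apoptosis genes outside the 10 members that a size rule named, each on its probe with the highest mean. Casp9 separates the groups most widely, from 4.61 and 4.76 in OG2-MEF to 9.57 and 9.44 in ES.

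Death-receptor genes were lower or not called in the pluripotent groups. Of 5 tested, 2 were called lower and 0 higher by limma in each comparison with fibroblasts, and 1 was higher at an unadjusted p under 0.05 in each. The last was Fas, at 0.91 in piPSC (adjusted p = 0.0018) and 0.59 in ES (adjusted p = 0.0097), both under 2-fold. Tnfrsf10b differed by -0.57 in ES (adjusted p = 0.047), also under 2-fold. Casp8, the caspase that cleaves Bid, fell in piPSC (-2.32, SE 0.18, adjusted p = 0.00011) and in ES (-2.85, SE 0.18, adjusted p = 4.7e-05). Tnfrsf1a, a receptor for tumour necrosis factor, fell by 2.44 in piPSC (SE 0.19, adjusted p = 0.00013), was at least 14.3-fold lower in ES (adjusted p = 1.4e-05), and was at least 2.62-fold higher in piPSC than in ES (adjusted p = 0.0021), where the fitted difference of 2.11 was 1.20 with an offset of 50. Of the inhibitors of apoptosis only 2 genes were tested. Birc5, which encodes survivin, rose 2.10-fold in piPSC (adjusted p = 0.0075), or by a log2 fold change of 0.96 with an adjusted p of 0.059 without OG2-MEF replicate 1. Birc2 rose 2.01-fold in ES (adjusted p = 0.00056), but one of its other probes differed by -0.365 and another by 1.56, and the difference of the probe used was under 2-fold without OG2-MEF replicate 2 (0.97) and was just under it without ES replicate 1 (1.0). On the authors' matrix and with an offset of 50 Birc2 was also under 2-fold (0.979 and 0.96). Both calls ended under median scaling (0.72 for Birc5 and 0.75 for Birc2).

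Of 10 tested regulators of Bcl2 family genes and proteins, 0 were called in piPSC against fibroblasts by limma (4 higher and 2 lower at an unadjusted p under 0.05), and 3 were higher in ES. These were Mapk8, a stress kinase (1.30, SE 0.12), Fbxw7, a ubiquitin ligase subunit (1.26, SE 0.14), and Ywhae, a 14-3-3 protein (1.20, SE 0.23), with adjusted p of 0.00021, 0.0004 and 0.004. Under median scaling these were 0.935, 0.999 and 0.858 and no longer called, and without ES replicate 2 Ywhae was at 0.997. In piPSC the same genes also lay above fibroblasts, under 2-fold: Mapk8 by 0.49, Fbxw7 by 0.98 and Ywhae by 0.76. Their adjusted p by limma was 0.013, 0.0013 and 0.027. Usp9x (0.65, adjusted p = 0.014) and Mdm2 (-0.56, adjusted p = 0.02) likewise differed from fibroblasts in piPSC by under 2-fold. For Usp9x, which removes ubiquitin from Mcl1, the ES arrays lay at 5.11 and 4.81, where the lowest detected signals were 5.04 and 5.31. Usp9x was higher in piPSC than in ES by 1.26 (SE 0.16, adjusted p = 0.0059), or 0.815 on the authors' matrix and 0.735 with an offset of 50. Its adjusted p was 0.066 without piPSC replicate 1 and 0.058 without piPSC replicate 2.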

How the data were processed

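Total RNA (500 ng per sample) was labelled with biotin and hybridised to Illumina bead arrays, per the labels' protocols. The deposited table held, per the file headers, an intensity and a detection p-value per probe and array. Intensities were on a linear scale and not normalized between arrays; scanner software and background subtraction are not given in the sources used here. Values in the authors' deposited matrix were log2, and quantile normalization of log2 intensity without background correction gave them within 0.0012; every column's median was 5.89 and no centring of genes was found.

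Here limma 3.58.1 in R 4.3.3 (neqc) applied normexp background correction based on detection p-values, an offset of 16, quantile normalization and a log2 scale. Symbols came from the platform annotation, updated to GRCm38.p6 by Entrez identifier (23962 probes), by accession (9) or kept (7), and 1719 probes had none. Testing took in the 14533 probes that reached a detection p under 0.05 on both arrays of any group, each probe by itself, by lmFit and eBayes with a mean for each of the 3 groups (3 residual degrees of freedom, prior 2.89) and Benjamini-Hochberg adjustment over all of them. For an "at least" fold, each array of the dim group was set to its faintest detected probe where the measured value lay below that, and the mean of these was compared with the bright group. The fit was tested on simulated data.

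The members, gene lists and tests were chosen with earlier results of these data known. Named were all members and, per other list and comparison, up to 3 called genes with the largest absolute change. Because the fit uses 1 spread for all groups and the ES arrays differed most, p-values against ES may be too small and those of piPSC against OG2-MEF too large. Alternatives covered background correction, offset, scaling, filter, probe choice, array weights, fold threshold, replicate block and leaving out each array. The number of arrays limits the precision.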

Additional observations from a re-analysis of the deposited data

How the results depend on the processing

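Of 1049 values of member probes under 19 alternatives, 967 kept their direction and side of the threshold, 56 lost the call, 18 gained it and 8 changed sign, of which 0 were called as reported. The reversed differences, given as their range over leaving out each array, were between piPSC and ES those of Bcl2l11 ILMN_1229255 (-0.337 to 0.084, and 0.028 under median scaling), Bcl2 (ILMN_1249366 -0.026 to 0.011, ILMN_2706514 -0.032 to 0.013, ILMN_1249021 -0.097 to 0.048) and Bbc3 ILMN_2920736 (-0.279 to 0.595), and between piPSC and OG2-MEF that of Pmaip1 ILMN_1245289 (-0.571 to 0.119). Counts of called member probes are given in the order piPSC against OG2-MEF, ES against OG2-MEF and piPSC against ES, reported as 7, 13 and 4. They were 3, 7 and 2 with an offset of 50, 3, 4 and 2 with 1 probe per gene (fewer probes tested), and 3, 7 and 1 with treat against 2-fold; without a fold threshold the first was 13, and on the authors' matrix or without background correction the last was 2. Leaving out 1 array gave 6 to 7, 11 to 14 and 1 to 5. Over all probes the counts were 5830, 6775 and 1602. They were 9466, 10394 and 3995 without a fold threshold and 3257, 4137 and 254 with treat, and the last was 933 with an offset of 50 and 846 with 1 probe per gene. Leaving out 1 array gave 5511 to 5986, 6382 to 7364 and 434 to 3000 (434 and 640 without piPSC replicates 1 and 2, 1044 without either OG2-MEF array, 3000 without ES replicate 1); a group left with 1 array is assumed to vary like the others. Where not stated otherwise, the cause was not tested. Median scaling moved the median difference of all probes from 0.02 to -0.18 in piPSC against OG2-MEF and from 0.05 to -0.17 in ES against OG2-MEF, and the split of called probes in the first from 2776 higher and 3054 lower to 2175 and 3794. The authors' matrix moved the split of piPSC against ES from 1017 and 585 to 835 and 260. With the replicate number as a block the counts of member probes were again 7, 13 and 4 and those of all probes 5846, 6802 and 1614. Deviations of same-numbered arrays correlated at 0.08, 0.00 and 0.25 between pairs of groups, and with 2 numbers the arrays are taken to share only a number. Signals near background limit Bcl2, Pmaip1, Bak1 and the weaker Bbc3 and Bcl2l11 probes, for which a larger offset shrinks every difference. They also limit Bcl2l1 on the ES arrays. With an offset of 50 its probe ILMN_2742557 was at -0.884 in ES against OG2-MEF. Between piPSC and ES that probe was at 0.606 and ILMN_2647885 at 0.561.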
